A study of Mus musculus with 8 samples.

Results

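Retinol carriers, retinoic acid binding proteins, the retinaldehyde dehydrogenases, a retinol receptor and a retinoic acid receptor were followed across 8 arrays of mouse cells. The set was listed as 9 genes, Rbp4, Ttr, Crabp1, Crabp2, Aldh1a1, Aldh1a2, Aldh1a3, Stra6 and Rarb. A gene entered when a probe set on the array carried its symbol and no other, and of several such probe sets the one brightest on average across all 8 arrays stood for the gene. This gave 8 genes of 17097 measured in all; Rarb was not analysed here. The arrays came from 2 samples of mouse embryonic fibroblasts (MEF 1 and MEF 2, strain C57/B6, embryos at day 13.5), 3 induced hepatocyte-like lines (iHep) at passage 10 and 3 samples of primary hepatocytes (PH 1, PH 2 and an unnumbered one called PH 3 here, male C57/B6 mice of 8 to 10 weeks). Fibroblasts became iHep lines after retroviruses had carried in Hnf4a and Foxa3 (line 4a3), Hnf4a, Foxa3, c-Myc and Klf4 (line 4a3CK), or Hnf4a, Foxa1, c-Myc and Klf4 (line 4a1CK). The lines grew in Hep medium, with serum, dexamethasone, nicotinamide, insulin, transferrin, selenium and growth factors, and PH were also cultured in Hep medium after collagenase perfusion. The medium of the MEFs is not given in the sources used here, so cell type and medium cannot be told apart in comparisons with MEF. Each line gave 1 array, the strain of the lines is not given in their labels, and whether arrays of 1 group came from different animals is not stated, so p-values measure the spread between these arrays, which may be technical.

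Retinol, or vitamin A, is stored in the liver and leaves hepatocytes bound to retinol binding protein 4 (Rbp4), which travels in blood in a complex with transthyretin (Ttr). In target cells the receptor Stra6 takes retinol up from that complex, dehydrogenases turn it into retinaldehyde, and the retinaldehyde dehydrogenases Aldh1a1, Aldh1a2 and Aldh1a3 oxidize retinaldehyde to retinoic acid. Crabp1 and Crabp2 bind retinoic acid inside the cell, Crabp2 being known for passing it to nuclear receptors such as Rarb, and Cyp26 enzymes break it down.

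Reference sequence before the annotated starts of the members was searched for the letters of sites known for retinoic acid receptors, forkhead factors, Hnf4a and Hnf1, because forkhead factors and Hnf4a were the factors transduced. RefSeq windows of the GRCm38.p6 build ran from 250 bases before to 50 bases after a start. They were used for 6 of the 9 listed genes (11 windows). No window of Ttr, Crabp2 or Aldh1a3 was searched, so nothing is said about these patterns in those genes. Both strands were searched for GTTCA or GGTCA repeated after a gap of any 6 bases (direct repeats), TGTTTAC (forkhead), CAAAGTCCA (Hnf4a), and GTTAAT and TTAAC with any 2 bases between them (Hnf1). None of these patterns overlapped another in a member's window. The 250 bases before the start are shown for Rbp4, Aldh1a1 and Crabp1, the members that differed by the most between lines. For Rbp4 and Aldh1a1, which have several windows, the outermost start is shown. Matches are in capitals.
Rbp4 (chr19:38125322-38125571, minus strand): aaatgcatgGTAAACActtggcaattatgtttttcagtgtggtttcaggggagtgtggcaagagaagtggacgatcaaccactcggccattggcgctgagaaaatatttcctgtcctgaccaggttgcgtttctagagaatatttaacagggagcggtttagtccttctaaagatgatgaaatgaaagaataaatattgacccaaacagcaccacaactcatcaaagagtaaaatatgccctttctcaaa
Aldh1a1 (chr19:20492333-20492582, plus strand): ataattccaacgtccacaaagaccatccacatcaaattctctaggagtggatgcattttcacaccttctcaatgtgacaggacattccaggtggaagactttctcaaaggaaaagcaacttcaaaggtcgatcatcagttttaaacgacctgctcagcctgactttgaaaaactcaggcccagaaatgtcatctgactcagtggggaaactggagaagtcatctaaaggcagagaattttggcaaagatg
Crabp1 (chr9:54764498-54764747, plus strand): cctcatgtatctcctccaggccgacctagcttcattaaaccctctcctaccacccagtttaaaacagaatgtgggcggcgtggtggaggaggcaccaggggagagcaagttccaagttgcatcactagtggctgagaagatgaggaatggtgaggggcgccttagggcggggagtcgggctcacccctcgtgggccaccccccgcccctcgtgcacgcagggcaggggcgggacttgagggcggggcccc
The single forkhead match in Rbp4, read on the opposite strand, lay 241 to 235 bases before that start, and 3.65% of all 32851 windows held this pattern. No other pattern was found in these 3 stretches, which says only that those letters are absent there. Among the members' windows, Rarb held a direct repeat of GTTCA at 52 to 37 bases before its start (chr14:16575513-16575528, minus strand), a pattern in 0.0761% of all windows. It is shown because a repeat of this kind is the textbook site of retinoic acid receptors.
Rarb: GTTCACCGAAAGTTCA
Only the Rbp4 and Rarb windows, 2 of the 11 members' windows searched, held any of the patterns. The letters for Hnf4a, Hnf1 and the repeat of GGTCA were in 0.475%, 0.0396% and 0.1% of all windows. A match is a description of letters, not a measured binding site.

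All levels below are log2 signals per probe set, on which 1 unit is a 2-fold difference. Values are compared for 1 gene across arrays and not between genes. A value near 4.09, which is percentile 40 of all values, counts as dim. The array level was not equal: array medians lay between 4.23 and 4.45 except in PH 3, at 5.06, and PH 1 and PH 2 were close to each other (standard deviation of their differences across genes 0.159, against 0.549 for PH 1 and PH 3 and 0.57 for the MEF pair). The median gene was 0.25 higher in PH and 0.16 higher in the lines than in MEF, and the lines differed from PH by -0.09. These shifts are left in the values below. The split of all genes that passed moved with the scaling: of 1000 genes that passed between PH and MEF 577 were higher in PH, against 519 of 1128 after quantile normalization and 473 of 1137 after median subtraction. Of 1219 between the lines and PH, 254 were higher in the lines, against 526 of 1326 and 465 of 1281. Subtracting array medians or quantile normalization turned the sign of no member's difference. Of 10 hepatocyte markers, summed log2 signals were 42.8 to 44.8 in MEF, 49.7 to 76.0 in the lines and 89.1 to 96.7 in PH, with 7 passing as higher in PH than in MEF. Of 10 fibroblast markers, sums were 84.6 to 98.5 in MEF, 37.9 to 43.3 in the lines and 43.1 to 43.8 in PH, with 8 passing as lower in PH and 7 as lower in the lines. Most of these markers thus went with the labels of the MEF and PH arrays. The mean of Ass1, a hepatocyte marker, was higher in MEF (6.91) than in PH (5.34), without passing. The hepatocyte markers Cyp3a11 and Tat did not pass either. Cyp3a11 read 4.66 and 4.75 in MEF, 4.83 and 5.03 in PH 1 and PH 2, and 8.63 in PH 3. Tat read 3.94 and 3.75 in MEF 1 and MEF 2, and 4.11, 4.07 and 4.65 in PH 1, PH 2 and PH 3. Albumin, the main secreted protein of hepatocytes, read 4.01 and 4.12 in MEF and 11.87 to 11.94 in PH, was dim in lines 4a3CK (3.80) and 4a1CK (4.01) and stood at 9.30 in 4a3. Stellate cells are the liver's vitamin A store, and their 10 listed markers summed to 44.5 to 46.9 in MEF, 39.1 to 39.3 in the lines and 39.9 to 44.4 in PH. Lrat, the retinol-esterifying enzyme that defines them, was dim everywhere, at 3.71 to 3.99. Sums were 28.2 to 32.5 in MEF, 32.8 to 37.4 in the lines and 35.6 to 37.0 in PH for 6 measured bile duct and progenitor markers. They were 27.2 to 28.2, 29.4 to 29.8 and 28.2 to 34.1 for 7 endothelial markers and 38.5 to 39.1, 31.3 to 32.6 and 34.9 to 37.7 for 7 macrophage markers. Of these 7, 2 passed as higher in MEF than in PH and 1 as lower. Lyz2 read 8.54 and 9.28 in MEF and 4.26 to 4.97 in PH, and Adgre1 6.40 and 6.33 against 4.82 to 4.97. Cd14 read 6.36 and 5.88 in MEF and 9.10 to 10.29 in PH.

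**Figure D1:**
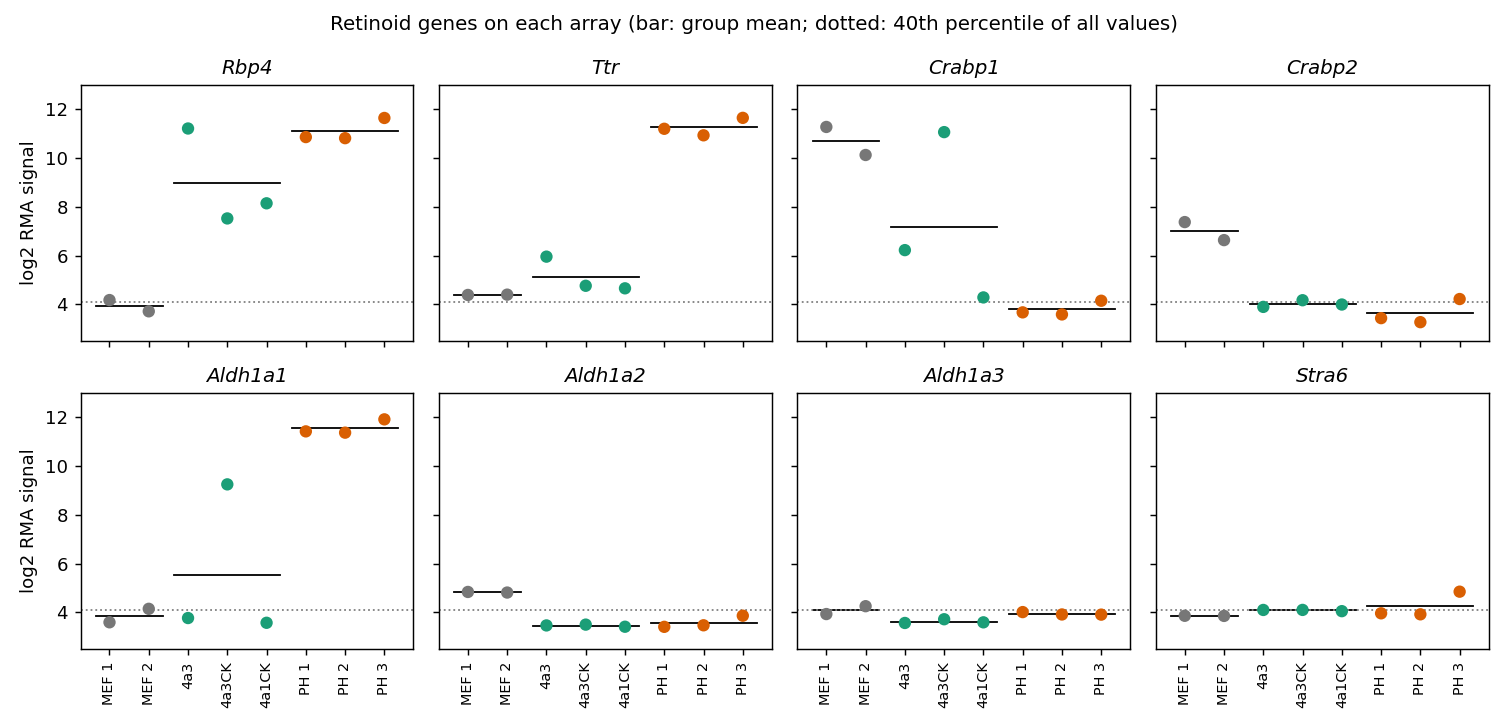
Log2 RMA signal (vertical axis) of the 8 measured retinoid genes on each of the 8 arrays (horizontal axis), grey for MEF, green for the iHep lines and orange for PH, with a bar at each group mean and a dotted line at 4.09, percentile 40 of all values. Rbp4 is at PH level in line 4a3, Aldh1a1 is high in 4a3CK alone among the lines, and Crabp1 is at MEF level in 4a3CK.

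The groups were compared with limma across all 17097 genes, and passing meant an adjusted p (Benjamini-Hochberg) below 0.05 and at least a 2-fold difference. For PH against MEF, 6 of the 8 measured members passed, where 5.85% of all genes did. Rbp4, Ttr and Aldh1a1 were higher in PH, as were 3.37% of all genes, and Crabp1, Crabp2 and Aldh1a2 were lower, as were 2.47%. The median difference of the members was 0.12, against 0.25 for all genes. Groups did not overlap for 7 of the 8, as for 38% of all genes. For iHep against MEF, 3 of 8 passed (6.45% of all genes), with Rbp4 higher (1.98% of all genes) and Crabp2 and Aldh1a2 lower (4.47%). The median difference was -0.12, against 0.16 for all genes. Groups did not overlap for 6 of the 8, as for 60.9% of all genes. For iHep against PH, 2 of 8 passed (7.13% of all genes), Ttr and Aldh1a1 as lower (5.64%) and 0 as higher (1.49%) in limma. At an unadjusted p under 0.05 with the same 2-fold minimum the counts were 3 lower and 1 higher. The median difference was -0.24, against -0.09 for all genes, and groups did not overlap for 4 of the 8, as for 26.3% of all genes. The 3 comparisons share arrays, so their results are not independent of each other.

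**Figure D2:**
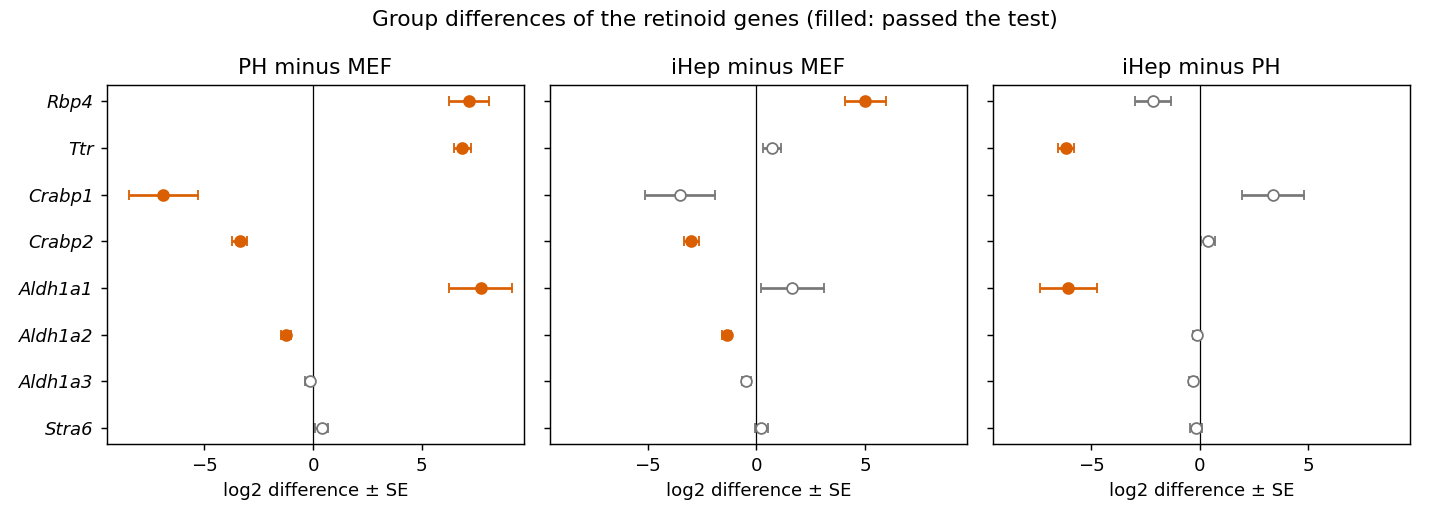
Log2 difference (horizontal axis) with its standard error for each retinoid gene (vertical axis) in PH minus MEF, iHep minus MEF and iHep minus PH; filled orange points passed the test and open grey points did not. Rbp4, Ttr and Aldh1a1 lie at 6.87 to 7.70 in the first panel, while in the second only Rbp4 of these 3 is filled.

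The plasma carriers were high in PH. Rbp4, which carries retinol out of the liver, read 4.17 and 3.71 in MEF 1 and MEF 2. The lines 4a3, 4a3CK and 4a1CK read 11.21, 7.52 and 8.14, and PH 1, PH 2 and PH 3 read 10.86, 10.82 and 11.64. Every line lay above both MEF arrays, and 4a3 lay inside the PH range while both lines with c-Myc and Klf4 lay below it. Rbp4 was 143-fold higher in PH than in MEF (log2 difference 7.16 ± 0.93, SE, n = 3 and 2; limma adjusted p = 0.00248). It was 32.4-fold higher in the lines than in MEF (5.02 ± 0.93, n = 3 and 2; limma adjusted p = 0.0168), a call lost without either MEF array (adjusted p = 0.0801 without MEF 1 and 0.102 without MEF 2) and with PH out of the fit (adjusted p = 0.0562). Leaving out a line moved the fold, to 14.8 without 4a3 and 53.3 without 4a3CK, and both passed. Against PH the lines differed by -2.15 ± 0.83 (limma adjusted p = 0.18). Without line 4a3 that difference was -3.27 and passed (adjusted p = 0.00311). In whole cultures such as these, fewer cells of a type and less RNA per cell cannot be told apart.

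Ttr, the partner of Rbp4 in plasma, read 4.38 and 4.40 in MEF 1 and MEF 2. The lines 4a3, 4a3CK and 4a1CK read 5.96, 4.76 and 4.66, and PH 1, PH 2 and PH 3 read 11.20, 10.93 and 11.65. The PH arrays stood far above all others, and among the lines 4a3 was the highest. Ttr was 117-fold higher in PH than in MEF (6.87 ± 0.41, n = 3 and 2; limma adjusted p = 6.53e-05) and 70.4-fold lower in the lines than in PH (-6.14 ± 0.36, n = 3 and 3; adjusted p = 6.02e-05). The lines differed from MEF by 0.73 ± 0.41 (limma adjusted p = 0.355). A second Ttr probe set, which can bind more than 1 transcript, put 4a3 further from the other lines, at 6.89, against 3.28 in 4a3CK, 3.12 in 4a1CK, 3.17 and 3.42 in MEF 1 and 2, and 11.71 to 12.41 in PH. In 4a3 Rbp4 was thus at PH level (log2 difference from the PH mean 0.11) while Ttr was 39.5-fold under the PH mean. In 4a3CK Rbp4 was 12.0-fold and Ttr 90.6-fold under the PH mean, and in 4a1CK Rbp4 was 7.80-fold and Ttr 97.4-fold under it.

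The intracellular retinoic acid binding proteins were high in fibroblasts. Crabp1 read 11.28 and 10.13 in MEF 1 and MEF 2. The lines 4a3, 4a3CK and 4a1CK read 6.22, 11.06 and 4.28, and PH 1, PH 2 and PH 3 read 3.67, 3.58 and 4.15. Line 4a3CK lay between the MEF arrays, 4a1CK lay just above the highest PH array, and 4a3 lay between the groups. The fibroblast marker sum was 38.3 in 4a3, 37.9 in 4a3CK and 43.3 in 4a1CK, with 2, 2 and 3 of the 10 markers over the dim mark. The part of fibroblast markers in the Crabp1 result was not tested. Crabp1 was 119.5-fold lower in PH than in MEF (-6.90 ± 1.59, n = 3 and 2; limma adjusted p = 0.0398). The standard error pools the lines, whose standard deviation was 3.49 against 0.81 in MEF and 0.30 in PH. The call was lost on leaving out MEF 1, MEF 2, PH 1, PH 2 or PH 3 (adjusted p = 0.106 to 0.225), and after quantile normalization (adjusted p = 0.0584) or median subtraction (adjusted p = 0.0557). It held when each line was its own group (adjusted p = 3.1e-05). The Crabp1 and Ttr probe sets used are of kinds that can bind several transcripts, and no other kind was measured for these genes. The mean of the lines differed from MEF by -3.51 ± 1.59 (limma adjusted p = 0.256) and from PH by 3.39 ± 1.42 (adjusted p = 0.219). Without line 4a3CK the lines were lower than MEF by a passing -5.45 (adjusted p = 0.00195), against -2.06 without 4a1CK.

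Crabp2, which delivers retinoic acid to its receptors, read 7.37 and 6.63 in MEF 1 and MEF 2. The lines 4a3, 4a3CK and 4a1CK read 3.89, 4.17 and 3.99, and PH 1, PH 2 and PH 3 read 3.43, 3.27 and 4.22. All 3 lines lay near the dim mark, above PH 1 and PH 2 and below PH 3, the array with the raised median. Crabp2 was 10.3-fold lower in PH than in MEF (-3.36 ± 0.35, n = 3 and 2; limma adjusted p = 0.000692) and 7.92-fold lower in the lines (-2.99 ± 0.35; adjusted p = 0.00178). Both calls held whichever array was left out. Since the signals in PH and the lines are near background, these folds may be lower bounds. Lines and PH differed by 0.38 ± 0.31 (limma adjusted p = 0.595), and by 0.67 without PH 3 (adjusted p = 0.0799).

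The retinaldehyde dehydrogenases did not share a pattern. Aldh1a1, the form of adult liver, read 3.60 and 4.15 in MEF 1 and MEF 2. The lines 4a3, 4a3CK and 4a1CK read 3.77, 9.26 and 3.58, and PH 1, PH 2 and PH 3 read 11.43, 11.38 and 11.92. Only 4a3CK of the 3 lines was above the MEF arrays, and it was 5.00-fold under the PH mean. The hepatocyte marker sum was 69.6 in 4a3CK, 76.0 in 4a3 and 49.7 in 4a1CK, thus highest in 4a3. The bile duct and progenitor sum was highest in 4a3CK, at 37.4 against 33.7 in 4a3 and 32.8 in 4a1CK. Single markers went both ways, and their values follow in the order 4a3CK, 4a3 and 4a1CK. Highest in 4a3CK were Trf (hepatocyte, 11.68, 8.21 and 4.58), Sox9 (progenitor, 8.04, 5.39 and 4.33) and Cd14 (macrophage, 9.06, 6.76 and 5.93). Lowest in 4a3CK were albumin (hepatocyte, 3.80, 9.30 and 4.01), Epcam (progenitor, 6.15, 6.76 and 6.45) and Cd68 (macrophage, 3.56, 4.13 and 6.39). The macrophage sum was 32.55, 31.30 and 32.63. The part of these markers in the Aldh1a1 result was not tested. Aldh1a1 was 208-fold higher in PH than in MEF (7.70 ± 1.46, n = 3 and 2; limma adjusted p = 0.0161). Leaving out MEF 1, MEF 2, PH 1 or PH 3 ended that call (adjusted p = 0.108, 0.0785, 0.0506 and 0.0878). The lines were 65.9-fold lower than PH (-6.04 ± 1.30, n = 3 and 3; limma adjusted p = 0.0274), a call that ended without 4a3, 4a1CK, PH 1, PH 2 or PH 3 (adjusted p = 0.0869, 0.062, 0.0834, 0.0815 and 0.0574). The size of this difference rested on single lines, being 239-fold without 4a3CK (-7.90; adjusted p = 1.41e-05), 35.8-fold without 4a3 and 33.4-fold without 4a1CK. The standard deviation of the lines was 3.22, against 0.39 in MEF and 0.30 in PH. The mean of the lines differed from MEF by 1.66 ± 1.46 (limma adjusted p = 0.561), and by -0.20 without 4a3CK.

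Aldh1a2, the embryonic form in mesenchyme, read 4.84 and 4.82 in MEF 1 and MEF 2. The lines 4a3, 4a3CK and 4a1CK read 3.47, 3.50 and 3.42, and PH 1, PH 2 and PH 3 read 3.41, 3.48 and 3.87. Both MEF arrays were above all others, and every line and PH array was dim. Aldh1a2 was 2.37-fold lower in PH (-1.25 ± 0.22, n = 3 and 2; limma adjusted p = 0.0127) and 2.58-fold lower in the lines (-1.37 ± 0.22; adjusted p = 0.01) than in MEF. The PH call was lost without MEF 1, MEF 2, PH 1 or PH 2 (adjusted p = 0.0562 to 0.108) and when each line was its own group (adjusted p = 0.054). Leaving out MEF 1 or MEF 2 ended the iHep call (adjusted p = 0.0831 and 0.0728). After array medians were subtracted the differences were -1.52 and -1.56.

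Aldh1a3 read 3.94 and 4.26 in MEF 1 and 2, 3.57 to 3.72 in the lines and 3.91 to 4.02 in PH. It was dim on 7 of 8 arrays and passed in no comparison. Its 2 other probe sets read from 3.13 to 4.40, and they turned the sign of some of its differences, so no direction is given for it. Stra6, the receptor that takes retinol from Rbp4, read 3.87 and 3.86 in MEF 1 and 2, 4.06 to 4.11 in the lines, 3.97 and 3.93 in PH 1 and 2, and 4.85 in PH 3. Only PH 3, the array with the raised median, stood apart. Stra6 differed by 0.39 ± 0.30 between PH and MEF (limma adjusted p = 0.62), by 0.23 ± 0.30 between the lines and MEF (adjusted p = 0.71) and by -0.16 ± 0.27 between the lines and PH (adjusted p = 0.852).

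For the 6 members that passed between PH and MEF the groups did not overlap, so any split of the arrays gives the same sign. A split by submission order therefore shows only how the size of each difference varied. The labels name no batch, and the order of submission was inferred from a gap in the numbers of the sample records. By that order the lines, MEF 2 and PH 3 make up one set, called first here, and the remaining arrays the second. PH minus MEF within the first and second set was 7.93 and 6.66 for Rbp4, 7.25 and 6.68 for Ttr, 7.77 and 7.81 for Aldh1a1, -5.98 and -7.65 for Crabp1, -2.42 and -4.02 for Crabp2, and -0.95 and -1.40 for Aldh1a2. All lines lie in the first set, where iHep minus MEF was 5.25 for Rbp4, -2.62 for Crabp2 and -1.36 for Aldh1a2. These within-set values rest on 1 or 2 arrays a group for PH and MEF and have no test. With the submission set as a block, Crabp1 for PH against MEF (adjusted p = 0.065), Rbp4 for iHep against MEF (adjusted p = 0.0554) and Aldh1a1 for iHep against PH (adjusted p = 0.0759) no longer passed. With the closely similar PH 1 and PH 2 averaged into 1 sample, Crabp1 (adjusted p = 0.105) and Aldh1a2 (adjusted p = 0.0563) no longer passed between PH and MEF, nor did Aldh1a1 between the lines and PH (adjusted p = 0.081).

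The lines were then set beside each other, which has no replicate check because each is 1 array. A difference of 2 on the log2 scale, 4-fold, was counted. From 4a3 to 4a3CK, which differ in c-Myc and Klf4, 3 of the 8 members passed that mark, as 2.23% of all genes did. Rbp4 was 12.9-fold lower in 4a3CK, Crabp1 was 28.7-fold higher and Aldh1a1 was 44.8-fold higher. Between 4a1CK and 4a3, which differ in c-Myc and Klf4 and also in the Foxa factor, 1 of 8 did (1.32% of all genes), Rbp4 being 8.39-fold lower in 4a1CK. Crabp1 was 3.84-fold lower in 4a1CK, just under the mark. Between 4a3CK and 4a1CK, which differ in the Foxa factor alone, 2 of 8 did (3.16% of all genes), Crabp1 being 110-fold and Aldh1a1 51.2-fold higher in 4a3CK. Rbp4 differed by 1.54-fold between them. Ttr was 2.29-fold lower in 4a3CK and 2.46-fold lower in 4a1CK than in 4a3. Crabp2, Aldh1a2, Aldh1a3 and Stra6 differed by 1.00-fold to 1.21-fold in every pair. Line, factor set and array cannot be told apart here.

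For members that passed between PH and MEF, the place of each line on the way from the MEF mean (0%) to the PH mean (100%) was computed on the log2 scale. Line 4a3 stood at 101.5% for Rbp4, 22.8% for Ttr, 64.9% for Crabp1, 92.4% for Crabp2 and -1.32% for Aldh1a1. Line 4a3CK stood at 49.97% for Rbp4, 5.39% for Ttr, -5.26% for Crabp1, 84.3% for Crabp2 and 69.9% for Aldh1a1. Line 4a1CK stood at 58.6% for Rbp4, 3.87% for Ttr, 93.0% for Crabp1, 89.5% for Crabp2 and -3.85% for Aldh1a1. For Aldh1a2 all lines lay past the PH mean, at 106.6% to 113.6%. Every line and PH array was dim for that gene, and the lines lay inside the PH range. PH 3, the array with the raised median, read 3.87, against 3.41 and 3.48 in PH 1 and PH 2. No line was therefore the nearest to PH for all of the genes placed: 4a3 was nearest for the plasma carriers, 4a1CK for Crabp1 and 4a3CK for Aldh1a1.

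The genes with the most similar profiles were sought as those with the smallest root mean square difference of gene-centred log2 values over the 8 arrays. For Rbp4 these were the sulfotransferase Sult1a1 (1.07) and the lipid transfer protein Stard10 (1.17). Both also read highest in 4a3 among the lines. Sult1a1 read 9.97 there, against 7.09 in 4a3CK and 6.48 in 4a1CK. Stard10 read 9.22 in 4a3, close to 9.15 in 4a3CK, and 7.80 in 4a1CK. For Ttr they were fibrinogen alpha, Fga (0.36), and vitronectin, Vtn (0.41), both secreted by hepatocytes. For Aldh1a1 they were kininogen, Kng1 (0.57), which read 7.81 in 4a3CK against 3.41 in 4a3 and 3.26 in 4a1CK, and Sprr1a (1.13), which read 6.76 in 4a3CK against 4.33 in 4a3. For Crabp1 they were the surface protein Antxr1 (1.05), at 8.64 in 4a3CK and 5.16 in 4a1CK, and Zfp503 (1.17). For Crabp2 they were Adgrg6 (0.17) and Arhgdib (0.22), and for Aldh1a2 the homeobox genes Meox2 (0.09) and Hoxd10 (0.11). The dim profiles of Aldh1a3 (Pwwp2a at 0.058 and Kif5b at 0.08) and Stra6 (Jakmip3 at 0.032 and Gimap1 at 0.033) had close neighbours too, and Jakmip3, like Stra6, was raised in PH 3 alone (4.84). These distances describe 8 arrays that share their group structure and array levels.

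Of 50 other genes of retinoid handling and response, 43 were measured. For PH against MEF, 6 passed as higher, 1 as lower and 36 did not pass, with a median difference of 0.39. For iHep against MEF, 2 passed as lower and 0 as higher in limma (at an unadjusted p under 0.05 with the 2-fold minimum, 2 lower and 3 higher, and without that minimum 2 and 5), with a median of 0.30. For iHep against PH, 7 passed as lower, 1 as higher and 35 did not pass, with a median of -0.11. The medians of all genes were 0.25, 0.16 and -0.09. The shares of the 43 that passed were 16.3%, 4.65% and 18.6%, beside 5.85%, 6.45% and 7.13% of all genes. The share between the lines and MEF rests on 2 genes and is not read as different from that of all genes.

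Genes that take up or make retinoids were among those higher in PH. Stra6l, a liver receptor related to Stra6, read 3.83 and 3.59 in MEF, 3.87 to 4.17 in the lines, 5.18 and 5.30 in PH 1 and 2 and 6.67 in PH 3. It was higher in PH than in MEF by 2.00 ± 0.42 (limma adjusted p = 0.0275) and lower in the lines than in PH (-1.72 ± 0.38; adjusted p = 0.0302). Bco1, which cleaves beta-carotene to retinaldehyde, read 3.73 and 3.78 in MEF, 4.30, 4.08 and 5.30 in 4a3, 4a3CK and 4a1CK, and 6.81, 6.81 and 7.85 in the PH arrays. It rose by 3.40 ± 0.44 in PH over MEF (limma adjusted p = 0.00246) and was lower in the lines than in PH (-2.60 ± 0.39; adjusted p = 0.00608). Line 4a1CK was the highest line for Bco1. Adh1, an alcohol dehydrogenase that oxidizes retinol, read 4.99 and 5.57 in MEF, 5.03 to 5.41 in the lines and 7.12, 7.22 and 8.74 in PH. The lines overlapped MEF, and PH was higher than MEF by 2.41 ± 0.47 (limma adjusted p = 0.0189) while the lines were lower than PH (-2.47 ± 0.42; adjusted p = 0.0106).

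Dhrs3, which reduces retinaldehyde back to retinol and is induced by retinoic acid, read 6.05 and 6.22 in MEF, 6.80, 8.39 and 6.65 in 4a3, 4a3CK and 4a1CK, and 8.31, 8.44 and 7.99 in the PH arrays. Line 4a3CK was inside the PH range. Dhrs3 was higher in PH than in MEF by 2.11 ± 0.48 (limma adjusted p = 0.0389), though not after quantile normalization (adjusted p = 0.104) or median subtraction (adjusted p = 0.135), nor with the submission set as a block (adjusted p = 0.0589). For iHep against MEF the difference was 1.15 ± 0.48 (adjusted p = 0.222). Dgat1, which esterifies diacylglycerol and can esterify retinol, read 6.22 and 5.97 in MEF, 4.89 to 4.95 in the lines and 6.27 to 6.56 in PH. It was lower in the lines than in MEF (-1.17 ± 0.21; limma adjusted p = 0.0162) and PH (-1.45 ± 0.19; adjusted p = 0.0032). Both Dgat1 calls came from a probe set that can bind several transcripts, and without such probe sets the differences were 0.41 and 0.03.

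The enzymes that break down retinoic acid split by group. Cyp26a1 read 4.15 and 3.89 in MEF, 4.69, 4.58 and 4.62 in 4a3, 4a3CK and 4a1CK, and 7.80, 7.78 and 7.40 in the PH arrays. It was higher in PH than in MEF by 3.64 ± 0.23 (limma adjusted p = 7.38e-05) and lower in the lines than in PH (-3.03 ± 0.20, limma adjusted p = 0.000111). Cyp26b1 read 6.24 and 6.45 in MEF, 5.18, 4.51 and 4.67 in 4a3, 4a3CK and 4a1CK, and 5.56, 5.36 and 5.22 in the PH arrays. It was lower in the lines than in MEF (-1.56 ± 0.27; limma adjusted p = 0.0121), while PH against MEF gave -0.96 ± 0.27 (adjusted p = 0.08).

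Among receptors, their partners and responsive genes, Tgm2, a transglutaminase induced by retinoic acid, read 6.66 and 5.51 in MEF, 6.63, 5.10 and 6.08 in 4a3, 4a3CK and 4a1CK, and 10.79, 10.92 and 10.69 in the PH arrays. It was higher in PH than in MEF by 4.71 ± 0.47 (limma adjusted p = 0.000606) and lower in the lines than in PH (-4.86 ± 0.42; adjusted p = 0.000404). Nrip1, a corepressor of nuclear receptors, read 7.19 and 7.74 in MEF, 6.44 to 7.45 in the lines and 8.55 to 8.76 in PH, and was lower in the lines than in PH (-1.64 ± 0.29; limma adjusted p = 0.0132). Meis2, a homeobox gene, read 6.14 and 7.34 in MEF, 7.13 to 7.41 in the lines and 4.04, 3.89 and 5.41 in PH. It was lower in PH than in MEF (-2.29 ± 0.50; limma adjusted p = 0.032) and higher in the lines than in PH (2.82 ± 0.45; adjusted p = 0.00786). Without probe sets that can bind several transcripts these differences were 0.37 and 0.47 and did not pass. The receptors Rara, Rarg, Rxra, Rxrb and Rxrg passed in no comparison. Rxra was 4.47-fold lower in 4a3CK (5.57) than in 4a3 (7.73), the only one of the 43 past 4-fold in any pair of lines. Of all genes, 2.23% were past 4-fold between 4a3CK and 4a3. The shares were 1.32% between 4a1CK and 4a3 and 3.16% between 4a3CK and 4a1CK, with 1 array a line.

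**Figure D3:**
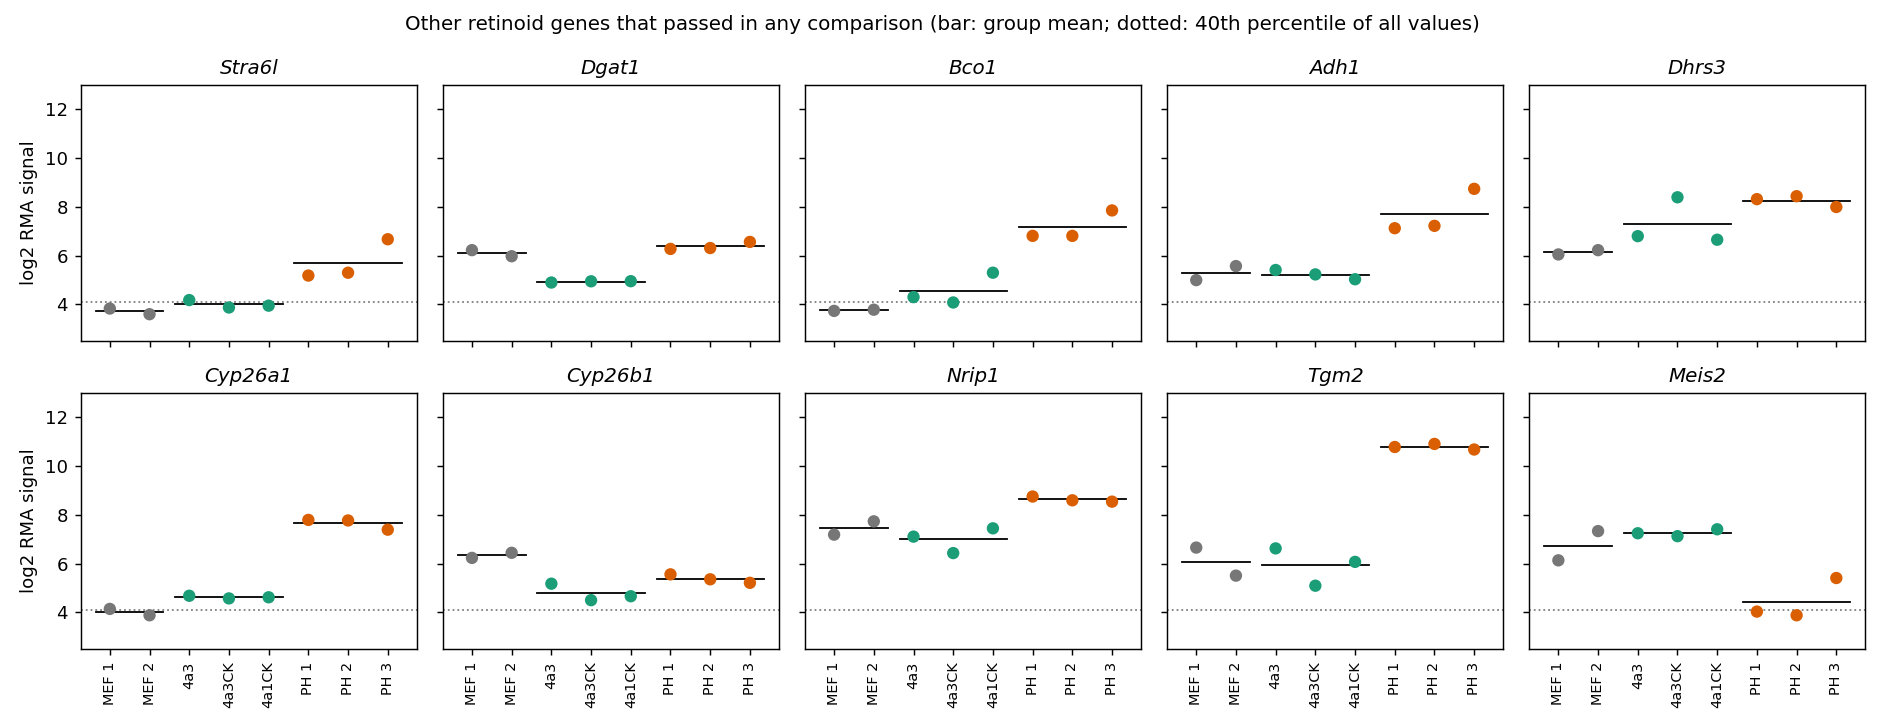
Log2 RMA signal (vertical axis) on each of the 8 arrays (horizontal axis) for the 10 other retinoid genes that passed in any comparison, grey for MEF, green for the iHep lines and orange for PH, with a bar at each group mean and a dotted line at 4.09, percentile 40 of all values. Cyp26a1 and Tgm2 are high in PH alone, and Dhrs3 in line 4a3CK reads 8.39, inside the PH range.

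Several of these calls were lost with 1 array fewer, which also leaves fewer arrays to a group. For PH against MEF, Adh1, Dhrs3 and Stra6l no longer passed without MEF 1 or without MEF 2, where 1 MEF array remains. Their differences there were 2.12 and 2.70 for Adh1, 2.03 and 2.20 for Dhrs3, and 2.12 and 1.89 for Stra6l. Meis2 no longer passed without MEF 2 (-1.69, against -2.89 without MEF 1), Dhrs3 and Meis2 without PH 1 or PH 2, and Dhrs3 without PH 3. For iHep against MEF, Cyp26b1 and Dgat1 no longer passed without MEF 1 or MEF 2, nor Dgat1 without 4a3 or 4a1CK. For iHep against PH, Stra6l no longer passed without any 1 line or without PH 2, nor Nrip1 without PH 1 or PH 2. With PH 1 and PH 2 averaged, Dhrs3 (adjusted p = 0.11) and Meis2 (adjusted p = 0.1) no longer passed between PH and MEF, nor Nrip1 (adjusted p = 0.0536) between the lines and PH. Bco1, Cyp26a1 and Tgm2 passed whichever array was left out, both between PH and MEF and between the lines and PH, as did Ttr.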

How the data were processed

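Total RNA of 8 samples was hybridized to 8 single-channel 3' expression arrays. The authors deposited log2 probe set signals that RMA in Partek gave, per the submitters' processing notes, with versions and settings not given in the sources used here. The table held 45141 probe sets, of which 28898 carried 1 gene symbol, 551 several and 15692 none, and 17097 genes were tested on the values as deposited. An array has no sequencing depth; the number of arrays limits the precision.

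All 8 arrays entered 1 limma model (version 3.58.1, R 4.3.3; lmFit, then eBayes) with a mean for each of the 3 groups (5 residual degrees of freedom), two-sided, with Benjamini-Hochberg adjustment over 17097 genes. Standard errors pool the spread of all groups, so differences between lines enter every error. Data were simulated with 1 spread a gene, averaged over the groups, so unequal group spreads and array shifts were left out. There, 60 of 100 genes changed by 2 and 91 of 100 changed by 4 on the log2 scale passed for PH against MEF. Of the unchanged genes, 6 passed.

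The members and gene lists were chosen with earlier results of these data known. Named were all members, every other retinoid gene that passed (up to 8 of largest difference a comparison), the 2 genes of most similar profile to each member (leaving out clone names), and up to 3 markers a cell type or any that a result turns on. Alternatives were other normalizations, probe set rules, filters, variance models, groupings, thresholds and blocks, PH 1 and PH 2 averaged, and each array left out. The crossed pairing and the members' other probe sets were added after seeing the data. Plots used matplotlib 3.10.9.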

Additional observations from a re-analysis of the deposited data

Results flagged for a closer look

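Aldh1a1 moved in opposite directions from the fibroblasts in a pair of lines. In 4a3CK it read above both MEF arrays (9.26), and in 4a1CK below both (3.58, against 3.60 and 4.15), so the lines differed by 5.68 on the log2 scale. The side on which 4a1CK lies rests on a gap of dim values, and the difference was not tested, each line being 1 array.

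A Ttr probe set that the comparisons did not use read 6.89 in line 4a3, where the MEF arrays read 3.17 and 3.42. The probe set used read 5.96 there, against 4.38 and 4.40. On the unused probe set 4a3CK read 3.28, between the MEF arrays, and 4a1CK read 3.12, below both.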

How the results depend on the processing

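Of the differences of single genes under the alternatives, 736 kept direction and call, 92 lost the call, 6 gained it and 16 turned sign. No scaling turned a member's sign. At an adjusted p under 0.01, 3 members passed between PH and MEF, 1 between the lines and MEF and 1 between the lines and PH, and 3, 0 and 5 of the other retinoid genes. Of all genes 3.05%, 2.28% and 2.78% did. With each line its own group, 5 and 4 members passed for iHep against MEF and against PH, Aldh1a1 and Crabp1, or Crabp1 and Rbp4, being added, and 1 other retinoid gene for iHep against MEF; that fit leaves the spread between lines out of its error, so the added calls say nothing about other lines. Without probe sets ending in _s_at, _x_at or _a_at, which leaves out Ttr and Crabp1, 1 member passed for iHep against PH, and 4, 1 and 5 other genes in the 3 comparisons. With the submission set as a block, or with PH 1 and PH 2 averaged, 1 member passed for iHep against PH. For the other genes in iHep against MEF, quantile normalization gave 4, only the compared groups 4, the mean of all probe sets 1, and a log2 difference of at least 2 gave 0. Of these counts of 0, limma at an unadjusted p under 0.05 gave 5 genes of at least 2-fold for the strict adjusted p and 0 of at least 4-fold for the larger difference. That last threshold left 5 for iHep against PH. Quantile normalization put 2 members past 4-fold between 4a1CK and 4a3. The shares of all genes that passed moved too. For iHep against MEF they were 9.18% after quantile normalization, 7.97% with only the compared groups and 5.16% for the mean of all probe sets. For iHep against PH they were 7.64% with the submission block and 3.44% with PH 1 and PH 2 averaged. Without multi-transcript probe sets they were 5.28%, 5.89% and 6.34% in the 3 comparisons.

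Leaving out each array gave 3 to 6, 1 to 4 and 1 to 2 members, and 3 to 9, 0 to 4 and 6 to 9 other genes, in the order PH and MEF, lines and MEF, lines and PH. The low counts against MEF came without MEF 1 or MEF 2, and for members in PH against MEF also without PH 1. Without MEF 1 or MEF 2, 1 MEF array remains, and fewer of all genes passed against MEF too. Of all genes, 4.01% passed between PH and MEF without PH 1. Without PH 3, 11% passed between the lines and MEF and 10.6% between the lines and PH. For iHep against PH, 1 member passed without 4a1CK or any PH array. For the other genes in iHep against MEF, 4 passed without PH 3, 1 without 4a3 or 4a1CK, and 0 without MEF 1 or MEF 2 (4 and 3 at an unadjusted p under 0.05 and at least 2-fold in limma).

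The replicate number was used as a block over MEF 1, MEF 2, PH 1 and PH 2. For PH against MEF, 6 members and 7 other retinoid genes then passed, beside 5.26% of all genes, Meis2 being lost and Dhrs4 added. Deviations from the group means of same-numbered arrays correlated at -0.20 across 17097 genes. The crossed pairing gave 6 and 10, beside 7.64% of all genes. The signs that turned were those of dim or uncalled differences and of genes with disagreeing probe sets. Aldh1a3 for PH against MEF was 0.0398 as the mean of all probe sets, 0.36 without multi-transcript probe sets and on one other probe set, and -0.31 to 0.0134 on leaving out each array, the highest without MEF 2. For iHep against MEF Aldh1a3 was 0.0289 as the mean, 0.21 without multi-transcript probe sets and on one other probe set, and 0.34 on the third, which gave 0.44 for iHep against PH. Aldh1a1 for iHep against MEF was -0.20 without 4a3CK and up to 2.64 without 4a1CK, and Stra6 was -0.0323 with the submission block. Aldh1a2 and Stra6 for iHep against PH ranged from -0.21 to 0.0193 and from -0.32 to 0.14, the highest without PH 3. Without multi-transcript probe sets Meis2 was 0.37 for PH against MEF, and Dgat1 0.41 and 0.0331 for the lines against MEF and PH.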
